A study of Homo sapiens with 13 samples.

Results

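Regions of the genome that carried a TAZ, a TEAD4 and a JUN peak but no listed YAP peak were taken from chromatin immunoprecipitation sequencing (ChIP-seq) of MDA-MB-231 cells. They were selected by merging the peak lists of YAP, TAZ, TEAD4 and JUN wherever peaks overlapped by at least 1 bp. Of the 28100 merged regions, 572 (2.04%, 95% interval 1.87 to 2.21%) held at least 1 TAZ, 1 TEAD4 and 1 JUN peak and none of YAP. They made up 11.8% (10.9 to 12.7%) of the 4856 regions with TAZ, TEAD4 and JUN; the other 4284 held all 4 factors. Intervals of shares are exact Clopper-Pearson 95% intervals, those of medians come from order statistics, and both cover counting error only.

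MDA-MB-231 is a human breast cancer cell line, here grown in DMEM:F12 with 10% serum and given no treatment in the labels. The libraries comprised 2 replicates each of TAZ (antibody to WWTR1, the gene that encodes it), TEAD4, JUN and YAP, 2 rabbit IgG controls and 3 mouse IgG controls. There was 1 peak list per factor for both replicates, so the values below have no spread between replicates and the read depth behind them is unknown here. Because the members were chosen by these same peak values, the values are a description and none was tested. Positions are on hg19, and regions are named by position, without genes, for want of an annotation on hg19 here.

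The Hippo pathway is a kinase cascade that holds YAP and TAZ, paralogous coactivators of transcription, in the cytoplasm. Neither binds DNA on its own; both reach it mainly through the TEAD family, of which TEAD4 is a member. JUN pairs with FOS proteins or with other JUN proteins to form AP-1, which binds its own DNA motif, often at enhancers that TEAD proteins also occupy. In breast cancer cells YAP and TAZ are known for driving growth genes from such distal enhancers, and the pathway for restraining them.

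TAZ was weak at the regions without YAP. Enrichment, the authors' ratio of ChIP over IgG signal at each peak, had a TAZ median of 5.47 (interval 5.41 to 5.58, range 3.38 to 14.7) at the 572 regions and 8.64 (8.49 to 8.76) at the regions of all 4 factors. For TEAD4 the median was 6.14 (6.05 to 6.28, range 3.49 to 13.6) at the regions without YAP and 8.29 (8.17 to 8.41) at the regions of all 4 factors. For JUN it was 11.9 (11.4 to 12.3, range 4.44 to 35.0) at the regions without YAP and 14.2 (14.0 to 14.4) with all 4 factors. All 3 factors had lower medians at the regions without YAP. None of these pairs of intervals overlapped, but the intervals cover counting error only and are no test between the classes. The classes were chosen from the same peak lists, so the differences were not tested.

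Each peak was also placed in its own list, with 100 as the most enriched peak. The median percentile of TAZ was 20.1 at the regions without YAP and 69.8 with all 4 factors. That of TEAD4 was 31.6 without YAP and 63.5 with all 4 factors. JUN stood at 51.8 without YAP, near the middle of the JUN list, and at 69.1 with all 4 factors. The lists were called against different IgG libraries and differ in length, with 24554 JUN, 9798 TAZ and 8406 TEAD4 peaks. Percentiles are therefore compared between regions of 1 list, not as levels or shortfalls of different factors.

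**Figure D1:**
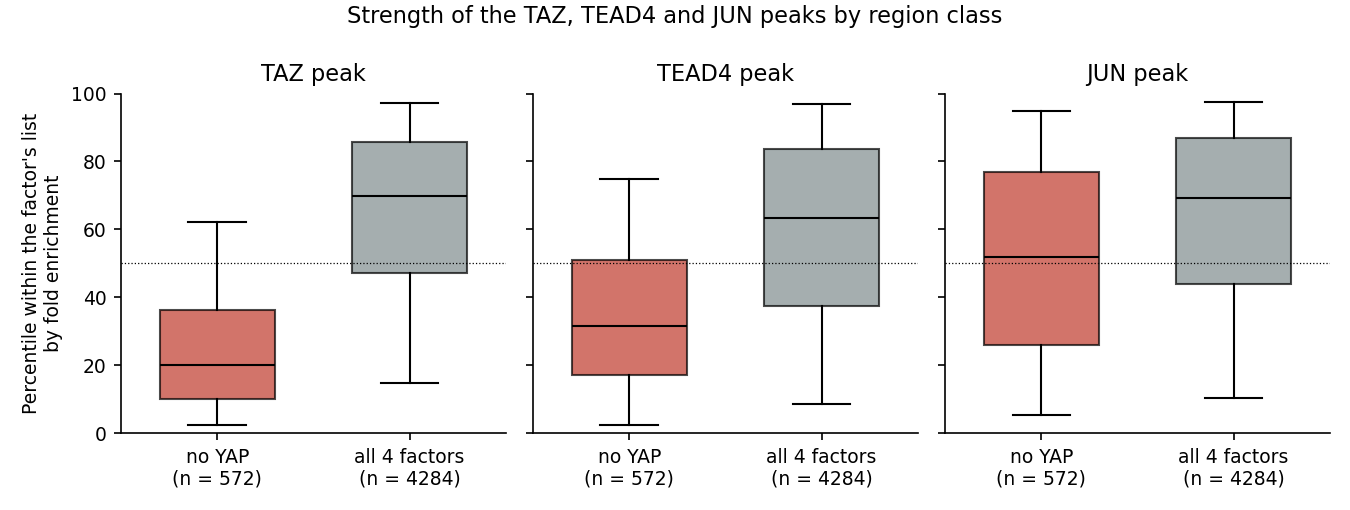
Percentile of the strongest TAZ, TEAD4 and JUN peak of a region within its own list (vertical axis, 0 weakest, 100 strongest by enrichment), 1 panel per factor, for the 572 regions without YAP and the 4284 of all 4 factors. Boxes span the quartiles with a line at the median, whiskers reach the 5% and 95% points of the regions and the dotted line marks 50; for TAZ the medians are 20.1 without YAP and 69.8 with all 4 factors, for JUN 51.8 without YAP and 69.1 with all 4 factors.

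Of the 572 regions, 505 (88.3%, 85.4 to 90.8%) had a TAZ peak in the lower 50% of the TAZ list, against 27.2% of the regions of all 4 factors. For TEAD4 the share in the lower 50% was 74.0% at the regions without YAP and 35.7% with all 4 factors. For JUN it was 47.7% without YAP and 30.2% with all 4 factors. The most frequent combination was a TAZ and a TEAD4 peak in the lower 50% with a JUN peak in the upper 50%, which was found at 199 regions without YAP (34.8%) and at 10.4% of the regions of all 4 factors. Nearly as frequent were regions with all 3 peaks in the lower 50%, 184 without YAP (32.2%) and 6.58% of those with all 4 factors. All 3 peaks were in the upper 50% at 17 regions without YAP (2.97%) and at 39.8% of the regions of all 4 factors. In the top 10% of their list stood 1 TAZ peak, 1 TEAD4 peak and 64 JUN peaks (11.2%) of the regions without YAP. JUN at these regions thus spanned its whole list, from the least enriched peak of all 24554 to the 10th most enriched.

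The peaks were also narrower. The TAZ peak had a median width of 514.5 bp at the regions without YAP and 663.5 bp with all 4 factors. The TEAD4 peak was 464 bp wide without YAP and 560 bp with all 4 factors, and the JUN peak 766.5 bp without YAP and 844 bp with all 4 factors. The JUN peak was wider than the TAZ peak at 92.1% of the regions without YAP and at 79.4% of those with all 4 factors. Over the whole lists JUN peaks were wider too, with a median of 730 bp against 587 bp for TAZ. Depth is unknown and the controls differ, so width is not read as a trait of the factor. Exactly 1 peak of each of the 3 factors was present at 562 of the 572 regions.

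The members were set beside 3 other classes without YAP, which each lack a further factor. The TAZ median at the 572 regions, 5.47, was close to that of the 1119 regions of TAZ and JUN, 5.57 (5.51 to 5.65), and below that of the 461 regions of TAZ and TEAD4, 6.33 (6.12 to 6.57). The TEAD4 median, 6.14, lay above that of the 689 regions of TEAD4 and JUN, 5.86 (5.78 to 5.94), and below that of the TAZ and TEAD4 regions, 7.18 (6.96 to 7.46). The JUN median, 11.9, was lower than at TAZ and JUN regions, 13.1 (12.8 to 13.4). Its interval overlapped that of the TEAD4 and JUN regions, whose median was 11.4 (11.1 to 11.8).

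Whether a region of TAZ, TEAD4 and JUN lacked YAP varied with the strength of its TAZ peak. The 4856 regions were put in 10 equal parts by the −log10 p-value of TAZ, a measure of confidence that rises with signal and depth. In the weakest part, 291 of 486 regions (59.9%, 55.4 to 64.3%) lacked YAP. The share was 33.5% in part 2, 14.2% in part 3, 5.97% in part 4, 1.86% in part 5 and 0.41% in part 6. None of the 485 and 486 regions in parts 7 and 8 lacked YAP, which allows up to 0.758% and 0.756%. The share was 0.41% in part 9 (2 regions) and 1.44% (0.58 to 2.95%) in part 10, the strongest, with 7 regions. The interval of part 10 overlaps those of parts 7 and 8. These few regions, described below, include pairs that lie close together, so no turn in the course is read from them.

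By TEAD4 the same shares ran less steeply, with 31.1% lacking YAP in the weakest part and 1.03% in the strongest. By JUN they ran between 21.2% in the weakest part and 3.91% (2.37 to 6.04%) in the strongest. These shares hold among regions that carry all of TAZ, TEAD4 and JUN; strong TAZ peaks without YAP were also found where JUN or TEAD4 was missing, as given below for −log10 p-values over 100. TAZ and YAP were called against the same rabbit IgG pool and TEAD4 and JUN against mouse IgG, so the control cannot be told apart from the factor in comparing the 3 courses.

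**Figure D2:**
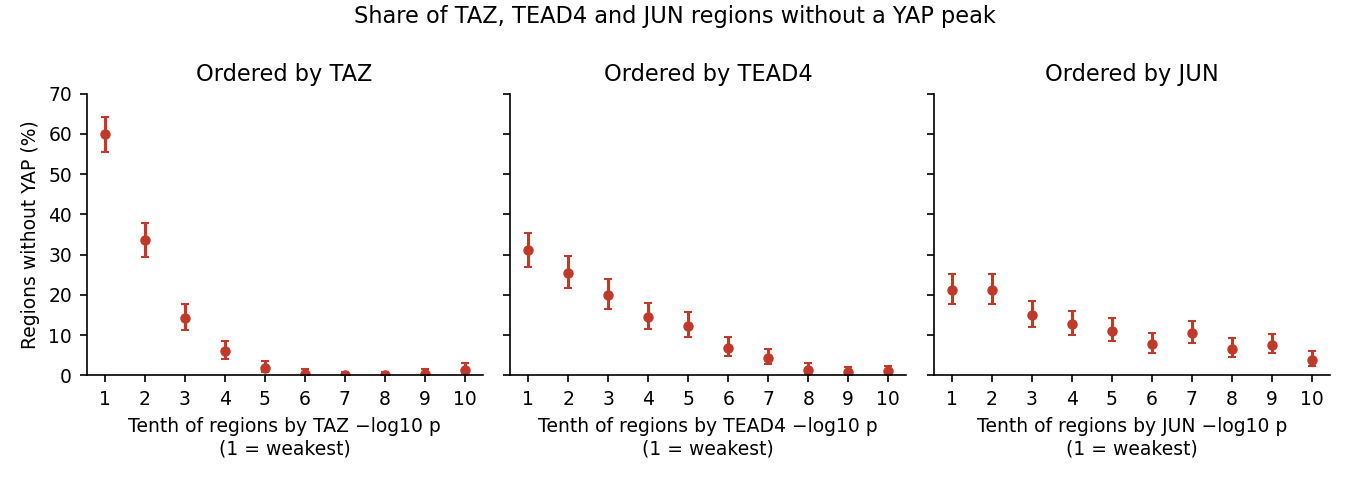
Share of the 4856 TAZ, TEAD4 and JUN regions that lack a listed YAP peak (vertical axis, percent) in 10 equal parts by the −log10 p-value of TAZ, TEAD4 or JUN (horizontal axis, weakest to strongest). Points are shares and bars are Clopper-Pearson 95% intervals; the TAZ curve starts at 59.9%, reaches 0 in parts 7 and 8 and stands at 1.44% in part 10.

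Regions of both kinds were then compared at similar TAZ strength, over the members' middle 50% of TAZ −log10 p (24.7 to 31.8). In this range 287 regions lacked YAP and 337 held all 4 factors. TAZ was still slightly lower without YAP, with a median −log10 p of 27.6, against 28.8 with all 4 factors. The median −log10 p of TEAD4 there was 35.5 without YAP and 38.2 with all 4 factors, and that of JUN 112 without YAP and 122 with all 4 factors. Over the whole classes the medians lay further apart, at 35.6 for TEAD4 and 114 for JUN without YAP, and at 61.5 for TEAD4 and 158 for JUN with all 4 factors. Where YAP was listed in this range it was itself weak: its median −log10 p was 30.3, the 22.7th percentile of the YAP list. Of these YAP peaks 45.4% (40.0 to 50.9%) were in the lowest 20% of the list by p, against 9.69% over all regions of 4 factors. The least significant peak kept in the YAP list had a −log10 p of 24.3 and that in the TAZ list 22.0.

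Across the members, the enrichments of the 3 factors were weakly related. Spearman's rho across regions between TAZ and TEAD4 was 0.23 at the regions without YAP (n = 572) and 0.59 with all 4 factors (n = 4284). Between TAZ and JUN it was 0.12 without YAP and 0.17 with all 4 factors. Between TEAD4 and JUN it was 0.12 without YAP and 0.11 with all 4 factors. By −log10 p, rho between TAZ and TEAD4 was 0.08 without YAP and 0.66 with all 4 factors. These are descriptions across sites of the same few libraries, and the members' narrow range of TAZ values limits any correlation within them.

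The mirror class, with YAP, TEAD4 and JUN but no TAZ peak, was smaller. It held 120 regions, 2.72% (2.26 to 3.25%) of the 4404 with YAP, TEAD4 and JUN. YAP was weak there, with a median enrichment of 5.87. Its median percentile in the YAP list was 20.6 by enrichment and 12.7 (9.80 to 16.6) by p. The TAZ peaks of the members stood at 20.1 by enrichment and 21.1 (19.6 to 22.9) by p in the TAZ list. These are places in different lists and not a comparison of levels. TEAD4 (median 6.13) and JUN (11.9) also had nearly the same enrichment in this class as in the members. The relative size of the classes changed with list length. The TAZ list has 9798 peaks and the YAP list 7709. With the TAZ list cut to its strongest 7709 peaks, 281 regions lacked YAP and 314 lacked TAZ. With all 4 lists cut to that length, the numbers were 95 lacking YAP and 83 lacking TAZ.

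Beside this weak majority stood 9 regions with a TAZ −log10 p over 100, a group picked out after the values were seen. Their TAZ values ran between 106 and 233, and the next member below had 62.7. The region chr5:140098197-140098774 had the highest, 233, with an enrichment of 11.4 (TAZ), 9.57 (TEAD4) and 16.0 (JUN). The second was chr17:8041609-8043143, with a TAZ −log10 p of 231 and enrichments of 11.9 (TAZ), 12.0 (TEAD4) and 10.0 (JUN). The third was chr12:125411697-125413391, with 214 and enrichments of 10.6 (TAZ), 12.2 (TEAD4) and 18.0 (JUN). All of the 9 had TEAD4 −log10 p-values of at least 77.8.

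The other 6 were spread over 5 chromosomes. The region chr8:17352398-17353073 had the highest TAZ enrichment of all members, 14.7, with TEAD4 at 9.82 and JUN at 9.05. On chromosome 17, chr17:8021327-8024709 had 7.68 (TAZ), 9.74 (TEAD4) and 9.80 (JUN), and was the widest member at 3383 bp. At chr11:59327444-59328985 the enrichments were 6.98 (TAZ), 7.06 (TEAD4) and 7.78 (JUN). On chromosome 5, chr5:140090144-140091190 lay close to the top region and had 6.88 (TAZ), 6.26 (TEAD4) and 7.23 (JUN). On chromosome 14, chr14:50052741-50053770 had 7.85 (TAZ), 5.98 (TEAD4) and 4.44 (JUN), the lowest enrichment of the whole JUN list. The last, chr14:50328446-50330174, had 5.99 (TAZ), 7.93 (TEAD4) and 5.33 (JUN).

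These 9 regions combined very small p-values with moderate enrichment. Their median TAZ enrichment was 7.85, against 14.1 at the 846 regions of all 4 factors whose TAZ −log10 p was likewise over 100 and no higher than the members' highest. The 168 regions of TAZ and TEAD4 without YAP and JUN in that range had a median of 8.17, near that of the 9. By enrichment JUN was weak at most of the 9, with a median of 9.05 (percentile 20.4) there and 15.5 (percentile 76.0) at the 846 regions. By that measure 7 of the 9 JUN peaks fell in the lower 50% of the list. By −log10 p the same JUN peaks ran between 58.9 and 250, on both sides of the JUN list's median of 108. The 6 regions of TAZ and JUN without YAP and TEAD4 in the same range of TAZ −log10 p differed from the 9. Their median enrichment was 14.9 for TAZ and 18.6 for JUN. Without an upper limit, a TAZ −log10 p over 100 was found at 1.57% of the members, 172 of the 461 TAZ and TEAD4 regions without YAP and JUN (37.3%), 6 of the 1119 TAZ and JUN regions (0.54%) and 929 of the 4284 regions of all 4 factors (21.7%). A TAZ and TEAD4 region of that strength without YAP and JUN lay within 1 Mb of 6 of the 9 (66.7%, 29.9 to 92.5%), against 40 of the other 563 members (7.10%). The 6 include the pair on chromosome 5 and the pair on chromosome 17, each close together and so not separate cases.

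**Figure D3:**
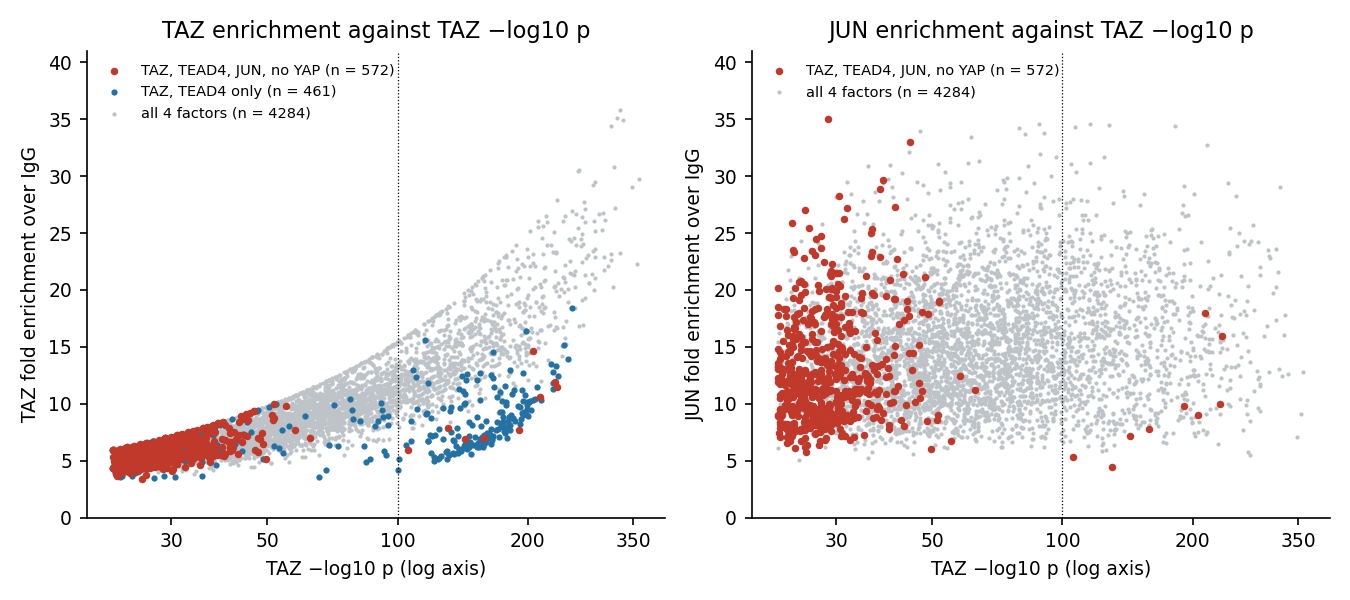
TAZ enrichment (left panel) and JUN enrichment (right panel) over IgG (vertical axes) against the −log10 p-value of TAZ (horizontal log axes), 1 point per region, with a dotted line at 100; "TAZ, TEAD4 only" are the regions without YAP and JUN. Right of the line the 9 members have a median TAZ enrichment of 7.85 and lie among the TAZ and TEAD4 regions, median 8.17, mostly below those of all 4 factors, median 14.1.

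By a rule that ranked members on the mean rank of enrichment over the 3 lists, 10 regions were singled out; the long JUN list weighs most in that mean. The first was chr4:159917755-159918342, with enrichments of 9.09 (TAZ), 9.05 (TEAD4) and 33.0 (JUN), the 30th most enriched JUN peak of the list. Its 3 summits lay within 27 bp and the nearest listed YAP peak was 122 kb away. The region on chromosome 12 named above came second. The third, chr7:73265038-73266452, had 7.94 (TAZ), 9.44 (TEAD4) and 25.3 (JUN), with summits within 21 bp. At chr8:58991395-58991957, the fourth, the values were 7.37 (TAZ), 9.15 (TEAD4) and 27.2 (JUN), and YAP was 721 kb away.

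The next 2 had more even values. The region chr2:112462954-112464299 had 8.81 (TAZ), 10.6 (TEAD4) and 19.0 (JUN). At chr15:83955990-83956915 enrichment was 8.68 (TAZ), 9.73 (TEAD4) and 18.3 (JUN), and a listed YAP peak lay 653 bp from its edge, the shortest distance among the 10. In seventh place, chr1:219944134-219944930 had 6.97 (TAZ), 8.46 (TEAD4) and 25.02 (JUN). The top region on chromosome 5 was eighth. The last 2 were on chromosome 2: chr2:33294495-33296021 with 7.53 (TAZ), 6.91 (TEAD4) and 28.8 (JUN), and chr2:235588067-235589333 with 7.47 (TAZ), 6.95 (TEAD4) and 27.3 (JUN). Of the 10, 6 had a JUN peak in the top 10% of its list, and none a TAZ or TEAD4 peak there.

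The extremes of single factors were found apart from each other. The highest TEAD4 enrichment of the members, 13.6, was at chr3:77504268-77504988, where TAZ stood at 4.26, near the foot of its list, and JUN at 11.8. The highest JUN enrichment, 35.0, was at chr2:239051953-239052834, with TAZ at 6.05 and TEAD4 at 4.89. The next widest members were chr19:13949494-13952723 (3230 bp) and chr14:105153766-105156629 (2864 bp). Their JUN peaks spanned the whole region, and their TAZ enrichments, 3.77 and 4.88, were low.

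In the regions without YAP the TAZ summit lay close to those of TEAD4 and JUN, though less tightly than with all 4 factors. The rule merged overlapping peaks, so closeness follows in part from the selection. Distances were not compared at equal peak strength. The median distance between TAZ and TEAD4 summits was 23 bp (20 to 25) without YAP and 17 bp (16 to 18) with all 4 factors. Between TAZ and JUN it was 31 bp (29 to 35) without YAP and 26 bp (25 to 26) with all 4 factors. Between TEAD4 and JUN it was 32 bp (27 to 38) without YAP and 30 bp (29 to 31) with all 4 factors, and here the intervals overlapped. All 3 summits fell within 50 bp at 51.2% (47.0 to 55.4%) of the regions without YAP and at 59.3% (57.8 to 60.8%) of those with all 4 factors. TEAD4 rather than JUN had the summit nearer to TAZ at 58.5% of 561 regions without YAP and at 61.0% of those with all 4 factors, ties left out.

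In 561 of the 572 regions the strongest peaks of the 3 factors shared at least 1 bp, so few members were joined by a chain of peaks. The loosest was chr14:35825127-35826116, where the factors were joined by an overlap of 18 bp, followed by the chromosome 11 region named above with 82 bp. A spread of more than 500 bp between summits was found at 34 regions without YAP (5.94%, 4.15 to 8.21%) and at 4.67% (4.06 to 5.34%) of those with all 4 factors. The 9 regions with strong TAZ peaks had a median spread of 102 bp and the other 563 one of 48 bp.

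**Figure D4:**
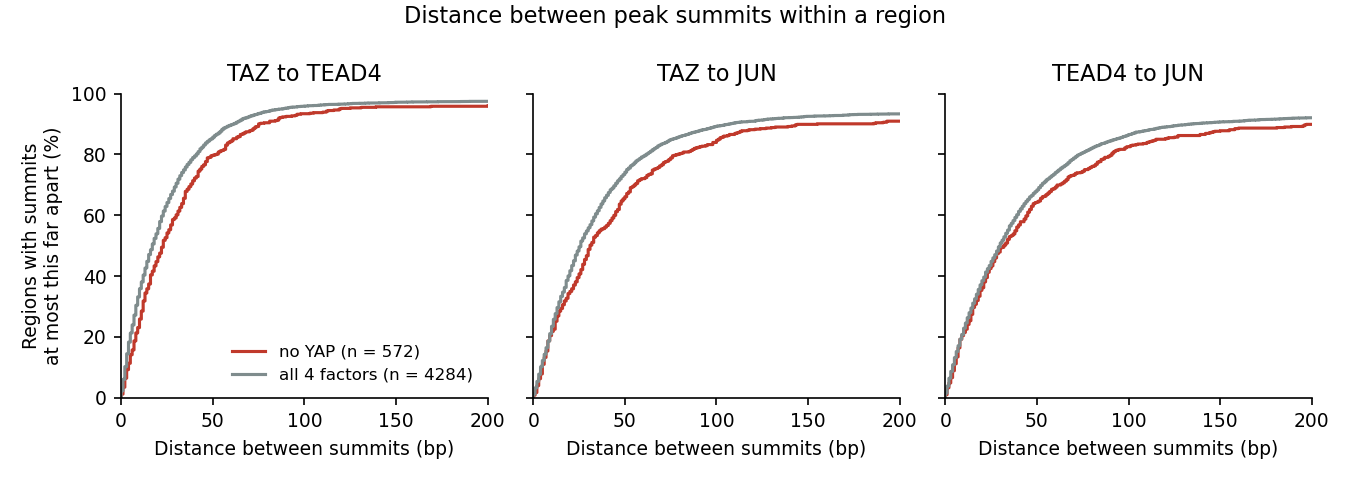
Cumulative share of regions (vertical axis, percent) by the distance between the summits of 2 factors (horizontal axis, bp, shown up to 200) for the regions without YAP and the regions of all 4 factors, 1 panel per pair. The TAZ to TEAD4 curve of the members lies below that of the regions of all 4 factors (medians 23 bp without YAP and 17 bp with all 4), and the TEAD4 to JUN curves lie close together (32 bp without YAP and 30 bp with all 4).

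The nearest listed YAP peak lay a median of 52.1 kb (45.0 to 60.8) from the edge of a member, between 100 bp and 2365 kb. It was within 1 kb at 18 regions (3.15%), within 10 kb at 112 (19.6%) and within 100 kb at 370 (64.7%). Of the other classes without YAP, the TAZ and JUN regions lay at a like distance, 49.6 kb (45.0 to 59.0). TEAD4 and JUN regions were at 63.1 kb (52.8 to 72.2), regions of JUN alone at 70.9 kb (68.7 to 73.4) and TAZ and TEAD4 regions at 117 kb (79.3 to 134). Regions of TAZ alone were at 66.7 kb (51.8 to 84.0) and those of TEAD4 alone at 81.0 kb (70.3 to 88.5). The members thus stood nearer to listed YAP peaks than regions of JUN alone, of TEAD4 alone or of TAZ and TEAD4 did. Their interval overlapped those of the TAZ and JUN regions, the TEAD4 and JUN regions and the regions of TAZ alone.

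At the boundary of the rule, the members closest to YAP were chr4:20195656-20196701, chr11:16913433-16913965 and chr2:45346197-45346714, with a YAP peak 100, 144 and 179 bp from their edge. On the other side, the overlap of the YAP peak with a peak of another factor was smallest at chr20:42410761-42411194 (251 bp), chr7:6487572-6488879 (275 bp) and chr19:13262003-13264282 (279 bp). In each of these the overlap was the YAP peak's whole width, so the order is one of narrow YAP peaks rather than of loose contacts. By the share of the YAP peak that a peak of another factor covered, a measure added after the values were seen, the lowest was 46.8% (666 of 1422 bp) at chr1:231962915-231964499. The YAP peak lay wholly inside a peak of another factor at 3200 of the 4284 regions of all 4 factors (74.7%).

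The YAP peaks carry numbers that ascend along each chromosome up to 35378, of which 7709 are listed. If the numbers count every candidate peak in order, 27669 candidates were left off the list. Of the 572 members, 566 lay between 2 listed YAP peaks of their chromosome, and each of these stretches held at least 1 unlisted candidate (median 7, highest 30). A stretch without one was thus found for 0 of 566 members, which allows a share of up to 0.650%. With 27669 unlisted numbers against 7709 listed, this outcome was nearly fixed, and members in the same stretch are not separate cases. Such a stretch was found for 0 of 688 TEAD4 and JUN regions, 2 of 451 TAZ and TEAD4 regions and 1 of 1113 TAZ and JUN regions. For regions of a single factor the numbers were 4 of 472 (TAZ), 4 of 847 (TEAD4) and 372 of 16167 (JUN, 2.30%). Where the flanking YAP peaks were at most 100 kb apart, there was none for 0 of 91 members (up to 3.97%). The same was so for 0 of 94 TEAD4 and JUN regions (up to 3.85%), 1 of 180 TAZ and JUN regions and 1 of 42 TAZ and TEAD4 regions. For regions of a single factor it was 2 of 67 (TAZ), 1 of 102 (TEAD4) and 228 of 2169 (JUN, 10.5%). The numbers do not give a candidate's position, so whether any of them lies on a member is not known from the list.

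The 566 members fell in 521 such stretches, and in all 521 the unlisted YAP candidates were at least as many as the members in it. Most of these stretches held 1 member, so at least 1 candidate in each had nearly fixed this outcome. Set against all regions without YAP in the stretch, they were as many in 430 of the 521 (82.5%). Counted by its own class, the same held in all 624 stretches with TEAD4 and JUN regions and in 969 of 970 with TAZ and JUN regions. It held in 317 of 325 with TAZ and TEAD4 regions, 425 of 429 with TAZ alone and 736 of 741 with TEAD4 alone. For regions of JUN alone it held in 80.3% of the 4966. The members thus had this largely in common with the other classes that hold TAZ or TEAD4. Regions of JUN alone were more numerous per stretch (16167 in 4966), so more candidates were required there. The shortest stretch with a member was 4.09 kb long and held 1 unlisted candidate and the member chr7:100761456-100762339, with enrichments of 5.80 (TAZ), 6.04 (TEAD4) and 12.2 (JUN). The rule asked for members with no unlisted candidate beside them, and there were none to name.

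**Figure D5:**
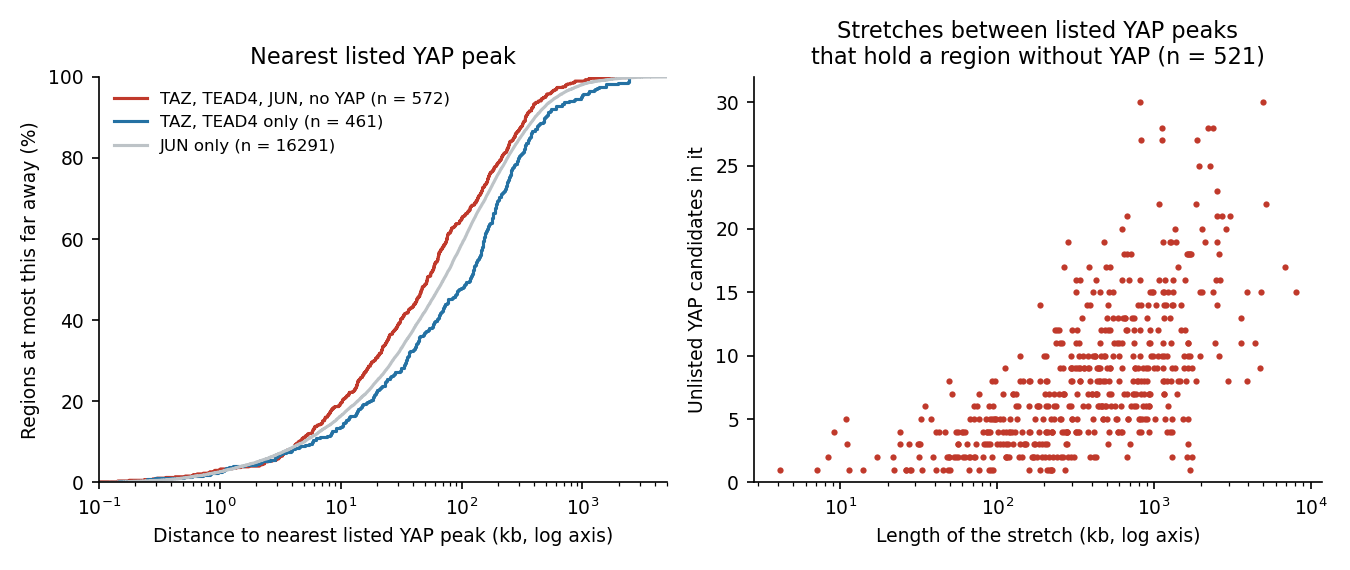
Left, cumulative share of regions (percent) by distance to the nearest listed YAP peak (kb, log axis) for the members, the TAZ and TEAD4 regions without YAP and JUN, and the regions of JUN alone; the medians are 52.1, 117 and 70.9 kb. Right, unlisted YAP candidates (vertical axis) in each of the 521 stretches between listed YAP peaks that hold a member, against the length of the stretch (kb, log axis); no point lies below 1.

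Members were scattered over all 23 chromosomes with peaks. As a share of the TAZ, TEAD4 and JUN regions of a chromosome they ran between 7.24% (4.54 to 10.9%) on chromosome 10 and 17.4% (12.2 to 23.8%, 31 of 178) on chromosome 14. Of the 100-kb windows with a member, 528 held 1 and 22 held 2, which was the most. The strong TAZ regions of chromosome 5 shared 1 of the 22, and those of chromosome 17 another. The closest pair was chr14:63158273-63159381 and chr14:63160490-63161254, 1108 bp apart. A region of all 4 factors lay within 100 kb of 48.1% (43.9 to 52.3%) of the members and of 53.7% (52.2 to 55.2%) of the other regions of all 4 factors. Between 26 and 29 Mb on chromosome 6, where 78 of the 461 TAZ and TEAD4 regions without YAP and JUN lay, there was no member (0 of 572).

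The stronger 50% of the TAZ, TEAD4 and JUN lists by p, with the full YAP list, left 12 regions without YAP, 0.643% (0.333 to 1.12%) of 1866. Of these 12, 5 were among the 9 with strong TAZ peaks. The other 7, named after their values were seen, included the regions on chromosomes 4, 15 and 2 (chr2:112462954-112464299) among the 10 best. The remaining 4 were chr1:60144304-60145038, chr8:95231634-95232419, chr13:24475297-24476100 and chr13:101527607-101528501. Their TAZ enrichments were between 5.94 and 8.38 and their JUN enrichments between 15.1 and 22.7.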

How the data were processed

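Titles name the factor of each library and set its group. The submitters' processing notes name hg19 as the build and list MACS2 2.0.10, Bowtie 0.12.7, CASAVA and SAMtools. Per the labels, peaks were called in the IDR (irreproducible discovery rate) framework at 0.01, with mouse IgG 3 and 5 pooled as the control of JUN, mouse IgG 3 and 4 as that of TEAD4, and rabbit IgG 1 and 2 as that of TAZ and YAP. The raw file names in the labels group the libraries by run in a like way, so factor, control and run cannot be told apart between YAP or TAZ and TEAD4 or JUN.

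The authors deposited 1 list per factor, with a summit offset (another kind of value), the fold enrichment over IgG (a ratio) and the −log10 p-value per peak. The deposited −log10 q-value and score were not used. The TAZ list tags its peak names with YAP and TAZ together, which nothing in the labels explains, so what distinguishes that list from YAP rests on its labels. The JUN peak names carry a replicate tag that the labels do not use. Read depth is unknown.

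Peaks were merged at an overlap of at least 1 bp in Python 3.11.15 with pandas 2.3.3, and the merge was checked against bedtools 2.31.1 and on simulated data. Each factor's strongest peak by p stood for a region. No test was run: regions share 1 list per factor and were chosen by the values shown. The members and the rules were chosen with earlier results of these data known. Regions were named by rule: the 10 that ranked best on average by enrichment, the highest enrichment per factor, the 3 highest TAZ −log10 p-values, the 3 widest, the fullest windows and those at the boundary; the exceptions are marked in the text. Alternatives were other overlap rules, list cuts, distances to YAP and regions left out. Motifs, start-site distances and gene lists were not analysed here, because the gene tables used are on GRCh38 and the peaks on hg19.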

Additional observations from a re-analysis of the deposited data

How the results depend on the processing

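Over 14 values under 46 alternatives, 37 stayed within the limits set (a factor of 1.5 for counts, the interval for medians and shares) and 9 did not. Those 37 include leaving out 26 to 29 Mb of chromosome 6, which could change no value because no member lies there. Some alternatives counted TAZ peaks instead of merged regions, with YAP scored by the same rule as TEAD4 and JUN. With a reciprocal overlap of 50%, 470 of the 3979 TAZ peaks with TEAD4 and JUN lacked YAP. By summits within 200 bp, 524 of 4469 did. The number of regions without YAP was 528 with peaks narrowed to 200 bp, 554 with no YAP peak within 1 kb and 460 with none within 10 kb. Cutting the lists moved it further, against 572 with full lists: to 193 with the stronger 50% of each list, 12 with the stronger 50% of all but YAP, 95 with lists of equal length and 281 with the TAZ list cut to the length of the YAP list. The share lacking YAP was then 0.643%, 4.11% (3.34 to 5.00%) and 6.43% (5.72 to 7.20%) for the last 3, against 11.8%. Under the cut of the TAZ list, 314 regions lacked TAZ, against 120. The median TAZ to JUN summit distance was 28 bp with narrowed peaks, against 31 bp. The cuts of the TAZ list, equal lengths for the share and for the class without TAZ, and leaving out the 9 strong regions were chosen after seeing the data. A cut leaves fewer peaks by construction; no other cause was tested. No paired analysis was possible because each factor has 1 list for both replicates, and for the same reason leaving out a replicate was not run. The planned motif and start-site alternatives were not run.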
